A study of Mus musculus with 4 samples.

Results

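Matrix metalloproteinases (MMPs), the ADAMTS proteases (disintegrin-like metalloproteinases with thrombospondin repeats) and their tissue inhibitors, the TIMPs, were followed in kidneys of mice given immune complexes of the kind that deposit in IgA nephropathy. The genes were taken by symbol alone (Mmp, Adamts or Timp followed by a number), which gave 46 of the 38924 listed genes: 23 Mmp, 19 Adamts and 4 Timp genes. RNA came from a cut part of the kidney. The mice, all female, were CB-17 SCID on the Balb/c background and so lacked functional B and T cells. The 2 saline libraries came from mice injected with saline through the tail vein, and the 2 immune complex libraries from mice injected with complexes of IgG and galactose-deficient IgA1 (Gd-IgA1). The groups are written as "after saline" and "after complexes". Both received 3 injections within 7 days, and kidneys were taken on the day after the last one. The labels do not say that the 4 samples are 4 animals, so the spread behind each p-value may be technical, and p-values cover only the spread among these libraries.

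MMPs and ADAMTS proteases are secreted or membrane-bound zinc enzymes. MMPs cut collagens, laminins and other matrix proteins. ADAMTS members cut proteoglycans such as versican, process procollagens or act on fibrillin microfibrils, and ADAMTS13 cuts von Willebrand factor. TIMPs block the active site of these enzymes, and in the kidney the balance between both sides bears on the turnover of the glomerular basement membrane and of the interstitial matrix.

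Promoter sequences are shown first because most genes in the Mmp cluster of chromosome 9 differed in promoter letters from the other genes with a window. RefSeq promoter windows (GRCm38.p6, 250 bases before to 50 after a start) were at hand for 32 of the 46 genes, and not for Mmp2, Mmp9, Mmp16, Mmp17, Mmp19, Adamts4, Adamts5, Adamts6, Adamts7, Adamts8, Adamts10, Adamts15, Adamts16 and Adamts19. They were searched on both strands for the AP-1 motif TGANTCA, the TATA box TATAAA and the GC box GGGCGG. The 4 windows below, cut to the 250 bases before the start, read 5′ to 3′ on the strand of the gene, with capitals marking any of these motifs. Mmp13 (chr9:7272264-7272513, plus strand) and Mmp7 (chr9:7691840-7692089, plus strand) stand for the Mmp cluster of chromosome 9. Mmp14 (chr14:54431348-54431597, plus strand) and Adamts1 (chr16:85803114-85803363, minus strand) are the Mmp and the Adamts gene with the highest level.
Mmp13: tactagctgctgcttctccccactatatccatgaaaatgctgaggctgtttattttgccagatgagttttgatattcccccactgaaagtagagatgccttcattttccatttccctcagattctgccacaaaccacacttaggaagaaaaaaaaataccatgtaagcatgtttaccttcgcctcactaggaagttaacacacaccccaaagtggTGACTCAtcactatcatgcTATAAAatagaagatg
Mmp7: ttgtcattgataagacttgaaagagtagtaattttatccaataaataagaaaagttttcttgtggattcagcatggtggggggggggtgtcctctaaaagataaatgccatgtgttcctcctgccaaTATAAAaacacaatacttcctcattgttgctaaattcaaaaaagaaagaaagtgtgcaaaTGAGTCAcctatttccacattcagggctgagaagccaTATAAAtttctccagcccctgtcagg
Mmp14: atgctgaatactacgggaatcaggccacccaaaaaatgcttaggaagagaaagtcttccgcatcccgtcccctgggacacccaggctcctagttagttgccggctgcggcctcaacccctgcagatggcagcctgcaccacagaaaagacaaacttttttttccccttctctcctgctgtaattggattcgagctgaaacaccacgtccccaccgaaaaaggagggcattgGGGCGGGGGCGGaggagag
Adamts1: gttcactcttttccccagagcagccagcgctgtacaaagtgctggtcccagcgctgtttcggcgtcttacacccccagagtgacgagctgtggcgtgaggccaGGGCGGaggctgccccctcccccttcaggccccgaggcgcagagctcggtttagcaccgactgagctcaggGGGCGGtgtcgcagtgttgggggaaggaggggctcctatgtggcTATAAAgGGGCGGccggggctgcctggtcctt

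The upper pair carries an AP-1 motif and a TATA box close to the start, whereas Mmp14 carries adjoining GC boxes without a TATA box and Adamts1 carries both a TATA box and GC boxes. Over full windows, the AP-1 motif was found in 8 of the 10 Mmp genes of the chromosome 9 cluster and in 0 of the other 22 genes with a window, against 8.97% of the 27025 genes in the RefSeq table. The TATA box was found in 9 of 10 cluster genes, in 2 of the other 22 (Mmp21 and Adamts1) and in 15.7% of all genes. The GC box was found in 0 of 10 cluster genes, in 18 of the other 22 and in 38.2% of all genes. A match describes letters only and shows no binding.

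**Figure D1:**
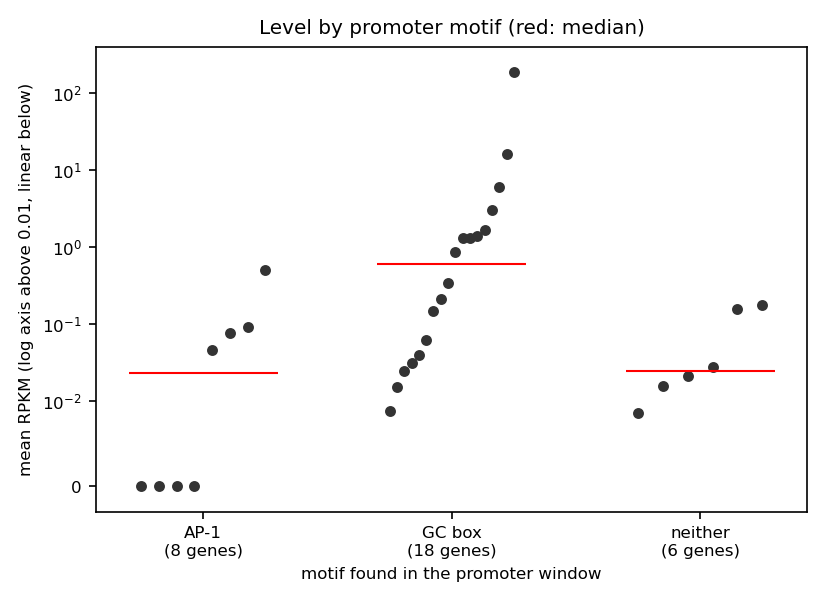
Mean RPKM over the 4 libraries (vertical axis, logarithmic above 0.01 and linear below) of the 32 genes with a promoter window, by the motif found; each point is a gene and the red line the median. The 8 genes with an AP-1 motif have a median of 0.0231 RPKM, the 18 with a GC box 0.597 and the 6 with neither 0.0244, and no gene has both.

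Levels between genes were compared as RPKM, the authors' exon reads per kilobase of exon and library size. The genes with an AP-1 motif reached 0.495 RPKM at most (Mmp13), and 7 of 8 lay under 0.1 RPKM. Those with a GC box ranged from 0.00880 to 190.8 RPKM, and 6 of 18 lay under 0.1. The 2 sets thus overlapped. All 8 genes with an AP-1 motif lie in the chromosome 9 cluster, so motif and place cannot be told apart.

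Of the 46 genes, 12 had a mean of at least 1 RPKM, 15 lay between 0.1 and 1, and 19 lay under 0.1. Timp3, the inhibitor that binds to the matrix itself, was listed far above the rest at 199.8 and 189.5 RPKM after saline and 175.7 and 198.4 RPKM after complexes, and it ranked between 209 and 286 among all genes over the 4 libraries. Timp2, which blocks many MMPs and also helps Mmp14 to activate pro-Mmp2, followed at 20.6 and 16.7 RPKM after saline and 13.2 and 13.9 RPKM after complexes. Timp1, the inhibitor induced in scarring tissue, had 0 and 2 reads after saline and 1 and 0 reads after complexes. The inhibitor side of the mouse kidney was therefore almost wholly Timp3 and Timp2 in both groups.

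The proteases were listed far lower. Adamts1, which cuts versican and aggrecan, stood at 6.95 and 7.91 RPKM after saline and 3.57 and 5.96 RPKM after complexes. Mmp14, the membrane-bound activator of pro-Mmp2, stood at 3.42 and 3.64 RPKM after saline and 2.87 and 2.34 RPKM after complexes. Mmp2 itself, a gelatinase that cuts type IV collagen, stood at 1.74, 1.93, 1.65 and 1.94 RPKM in saline 1, saline 2, immune complex 1 and immune complex 2. These 3 genes, with Adamts10 (a fibrillin-associated member), Adamts15 and Adamts9 (both versican-cutting), Mmp11 (stromelysin-3) and Mmp28 (epilysin), were the 8 highest proteases, the lowest of them Mmp28 at 1.31 ± 0.371 RPKM (mean ± SD over the 4 libraries). Adamts10 stood at 1.89, 2.38, 2.92 and 1.18 RPKM in the same order of libraries, with its highest and its lowest value both after complexes. Mmp11 stood at 2.07, 2.06, 1.47 and 1.11 RPKM and Mmp28 at 1.08, 0.91, 1.69 and 1.55 RPKM, each without overlap of the groups and in opposite directions. Adamts15 stood at 1.46, 2.04, 1.80 and 1.72 RPKM and Adamts9 at 1.21, 1.501, 1.46 and 1.34 RPKM, both with overlap. Neighbours in the order of means from Adamts10 (2.09 ± 0.742) down to Mmp28 differed by less than the larger of their SDs.

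Summed over genes, the Mmp genes gave 12.2 and 13.0 RPKM after saline and 13.2 and 10.7 RPKM after complexes. The Adamts genes gave 15.5 and 18.3 RPKM after saline and 13.9 and 14.1 RPKM after complexes, so the immune complex pair lay below the saline pair for Adamts and on both sides of it for Mmp. Adamts1 gave the largest share of the Adamts sum, and without Adamts1 the sums of the groups overlapped.

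**Figure D2:**
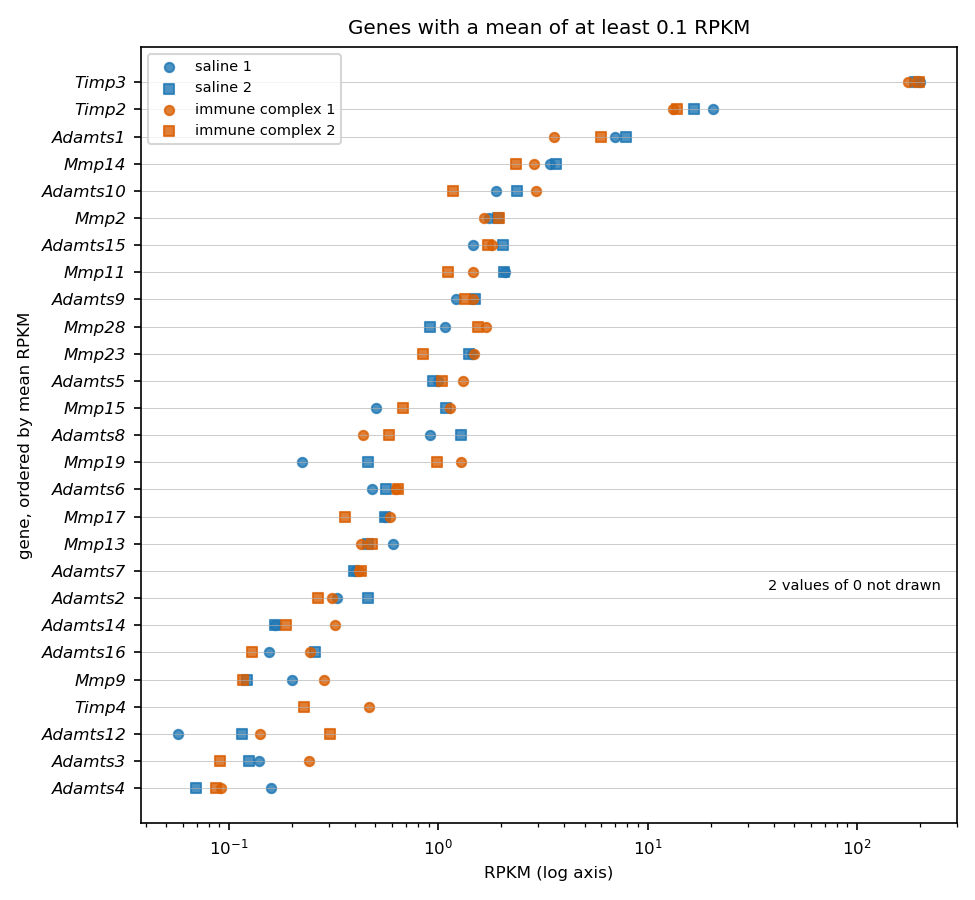
RPKM (horizontal logarithmic axis) of the 27 genes with a mean of at least 0.1 RPKM, ordered by mean; blue points are saline, orange points immune complex, circles replicate 1 and squares replicate 2. Timp3 and Timp2 stand above every protease, and the 2 saline values of Timp4, both 0, are not drawn.

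The Timp3 level rests on reads that were mostly not unique to it. Timp3 (ENSMUSG00000020044, chromosome 10, 86300372 to 86349506, plus strand) lies wholly inside Syn3, a synapsin gene on the minus strand, and 4.37% of its 132339 reads were counted as unique. All unique Timp3 reads (100%) crossed an exon junction. Syn3 held 9.71% and 14.8% of the reads of both genes together after saline and 15.7% and 10.9% after complexes. Reads across a junction of Timp3 numbered 1636 and 1440 after saline and 1366 and 1445 after complexes, against 106, 101, 66 and 78 for Timp2 and 11, 8, 8 and 8 for Syn3. Timp3 was therefore the most read inhibitor by spliced reads too, a count that is not per length. Of the other Timp genes, Timp1 lies inside Syn1 and Timp4 inside Syn2, each on the opposite strand, whereas Timp2 lies inside no listed gene. Of the 32 genes with at least 40 reads, 24 had at least 90% unique reads and 5 had under 75%: Timp3, Adamts7 (39.8%), Mmp19 (71.9%), Adamts3 (72.8%) and Adamts9 (73.5%). Adamts7 overlaps Tbc1d2b, Mmp19 overlaps Tmem198b and Adamts9 overlaps, among others, 9530026P05Rik, in each case on the opposite strand.

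Little was read from the Mmp cluster of chromosome 9 (chr9:7272514-7699585), which holds collagenases, stromelysins, matrilysin and macrophage elastase. Its 10 genes had 59 and 58 reads together after saline and 54 and 56 reads after complexes. Of these 227 reads, 196 belonged to Mmp13 (collagenase-3), Mmp12 (macrophage elastase) and Mmp20 (enamelysin), and the other 7 genes had under 10 reads each. Mmp7 (matrilysin), a protease known from injured tubule epithelium, had 2, 1, 2 and 2 reads. Mmp3 (stromelysin-1) had 2, 3, 2 and 0 reads, Mmp8 (neutrophil collagenase) 0, 0, 2 and 4, and Mmp10 none in any library. Elsewhere, Mmp9, the gelatinase of neutrophils and macrophages, had 15 and 9 reads after saline and 24 and 9 reads after complexes, so its groups overlapped. Markers of neutrophils summed to 1.38 and 0.851 CPM (counts scaled to library size) after saline and 1.57 and 1.56 CPM after complexes, with Mpo at 0 in every library.

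A further set of genes was read mostly in introns. The intron share was at least 50% for 14 of the 45 genes with any read. Mmp25 (a glycolipid-anchored MMP) had 94.0% of its 151 reads in introns (95% Wilson interval 89.1% to 96.8%, counting error only), Mmp16 (membrane-bound) 89.3% of 75, Adamts17 85.1% of 87, Adamts20 75.7% of 74, Adamts7 60.9% of 570 and Adamts3, a procollagen processor, 51.5% of 202. Adamts13, which is made mainly in liver, had 65.8% of 73 reads in introns (54.3% to 75.6%), and its 30, 8, 13 and 22 reads included none in exons in immune complex 1. Adamts19 had all of its 30 reads in introns. By library, in the order saline 1, saline 2, immune complex 1 and immune complex 2, Mmp25 had 33, 34, 47 and 37 reads and Mmp16 had 17, 15, 9 and 34. Adamts17 had 16, 26, 29 and 16 reads and Adamts20 had 20, 17, 22 and 15. Adamts7 had 123, 146, 168 and 133 reads and Adamts3 had 47, 53, 68 and 34. Counts of these genes cannot be taken as spliced message.

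**Figure D3:**
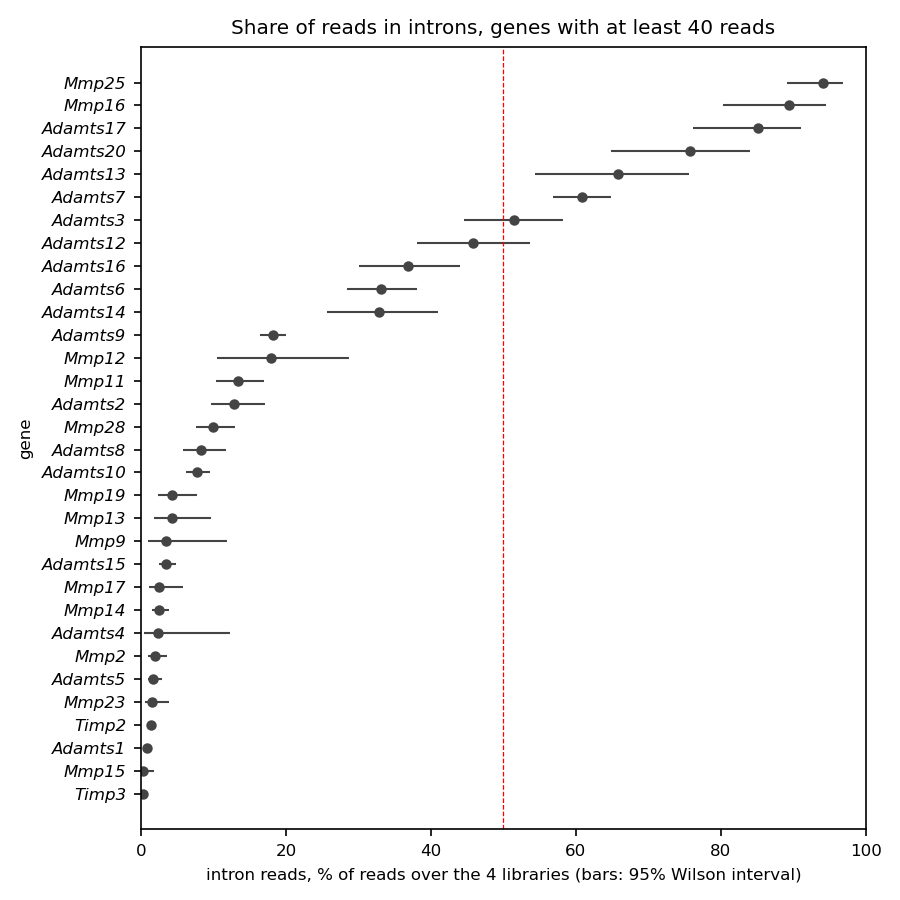
Share of reads in introns (horizontal axis, percent of all reads of the gene over the 4 libraries, bars the 95% Wilson interval) for the 32 genes with at least 40 reads; the dashed line marks 50%. Of these, 7 lie at or above 50% and 17 lie under 10%.

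The study's question was what the injected complexes do to the kidney, and the 2 groups were compared in one fit over all genes with enough reads (edgeR's quasi-likelihood test with Benjamini-Hochberg adjustment). Of the 46 genes, 32 had enough reads, and the test called 0 of them higher and 0 of them lower (threshold 0.05), as for all 16334 genes tested (0% each way). An unadjusted p under 0.05 was found for 3 of the 32, Mmp19, Adamts8 and Mmp28, against 4.59% of all genes. In the authors' deposited table, which calls 0.496% of its genes, 0 of 32 listed members were called, and the same 3 had a p under 0.05. Among these 32 members, Adamts4 stood in place of Adamts19. No adjusted p was given there for Adamts4, Adamts13, Adamts20, Mmp9, Mmp12 and Mmp16, so these could not be called. In whole tissue, fewer cells of a type and less RNA per cell cannot be told apart.

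Mmp19 (ENSMUSG00000025355, chromosome 10, 128790953 to 128800824), which cuts basement membrane proteins, had the largest positive log2 difference among the 32 tested genes. It was read at 0.787 and 1.75 CPM after saline and 4.66 and 3.50 CPM after complexes (16, 37, 104 and 74 reads), and the groups did not overlap. The means were 1.27 ± 0.681 and 4.08 ± 0.823 CPM (SD, n = 2 each), a log2 difference of 1.68 ± 0.45 (SE; adjusted p = 0.815 in edgeR's test). Without saline replicate 2 the difference was 2.35, against 1.22 when saline replicate 1 was left out. Leaving out either complex library gave a difference of 1.46 or 1.87. Counted by unique reads it was 1.54, and by exon reads 1.80. Reads across an exon junction of Mmp19 numbered 0 and 4 after saline and 13 and 6 after complexes.

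The summed level of adipocyte markers stood in the same order over the libraries as Mmp19. Cidec, Lep, Plin4 and Retn singly did not, being higher in immune complex 2 than in immune complex 1. All 8 adipocyte markers lay above saline in both immune complex libraries, with Lep at 0 in saline 1. Their summed levels were 56.6 and 457.4 CPM after saline and 1439 and 1101 CPM after complexes. Brown adipocyte markers, 1 of 3 higher without overlap, summed to 0.197 and 35.1 CPM after saline and 105.5 and 7.23 CPM after complexes. Macrophage markers had higher means for 9 of 9 genes (6 of 9 without overlap), with sums of 183.4 and 201.5 CPM after saline and 228.6 and 263.5 CPM after complexes. Urothelial markers summed to 51.7 and 78.7 CPM after saline and 14.97 and 14.79 CPM after complexes, with 1 of 6 lower without overlap, Psca, which gave 46.3 and 26.8 of the saline CPM. Smooth muscle and pericyte markers lay higher without overlap for 4 of 6 genes (sums of 121.5 and 179.0 CPM after saline and 218.2 and 175.7 CPM after complexes), and podocyte markers for 3 of 5 (381.8 and 364.2 against 494.1 and 371.5 CPM). Principal cell markers summed to 1912 and 685.9 CPM after saline and 681.5 and 426.3 CPM after complexes, with saline 1 apart from the rest. Beside these counts of markers without overlap, 15.4% of all genes tested lay above saline in both immune complex libraries and 14.6% lay below. The part of these cells in any difference reported here was not tested. Proximal tubule markers summed to 6321 and 6465 CPM after saline and 6702 and 5974 CPM after complexes. Those of the thick ascending limb summed to 7501 and 7135 CPM after saline and 4966 and 7614 CPM after complexes.

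Timp4, the fourth inhibitor, had too few reads to be tested. It had 0 and 0 reads after saline and 15 and 7 reads after complexes, 15 of the 22 unique, all 15 of these spliced, and none in introns. Set against a floor of 3 reads over the saline group, the pooled immune complex level of 0.506 CPM was 6.99-fold higher. From immune complex 1 alone the ratio to this floor was 9.29-fold and from immune complex 2 alone 4.57-fold. The floor covers counting error of the saline group only. The immune complex reads, unique or not, enter as observed, so these ratios are not lower limits. Its position was chromosome 6, 115245616 to 115251849, on the minus strand. Adipocyte markers also stood higher after complexes, their part in the result was not tested, and saline 2, with 457.4 CPM of them, had no Timp4 read.

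Mmp28 (ENSMUSG00000020682, chromosome 11, 83440768 to 83463071), an epithelial MMP, was the steadiest of the 3 genes when single libraries were left out. It stood at 4.38 and 3.83 CPM after saline and 7.53 and 6.85 CPM after complexes. The groups stood clear of each other, with means of 4.10 ± 0.386 and 7.19 ± 0.478 CPM. The log2 difference was 0.81 ± 0.26 (adjusted p = 0.941 in edgeR's test), and 0.70 to 0.91 with single libraries left out.

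Adamts8 (ENSMUSG00000031994, chromosome 9, 30942562 to 30963838, outside the Mmp cluster), an ADAMTS known to restrain blood vessel growth, differed in the other direction. It stood at 4.33 and 6.48 CPM after saline and 2.42 and 2.84 CPM after complexes, again without overlap. The means were 5.40 ± 1.52 and 2.63 ± 0.294 CPM, and the log2 difference was -1.04 ± 0.33 (adjusted p = 0.941 in edgeR's test). It was -1.30 without saline replicate 1, against -0.73 when saline replicate 2 was left out. Of 5 endothelial markers, 2 were lower without overlap (Pecam1 and Cdh5), beside 14.6% of all genes tested. Another 2 of the 5, Kdr and Tek, had higher means after complexes, with overlap. The part of these markers in the result was not tested. All 5 summed to 301.3 and 256.5 CPM after saline and 261.5 and 265.1 CPM after complexes.

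**Figure D4:**
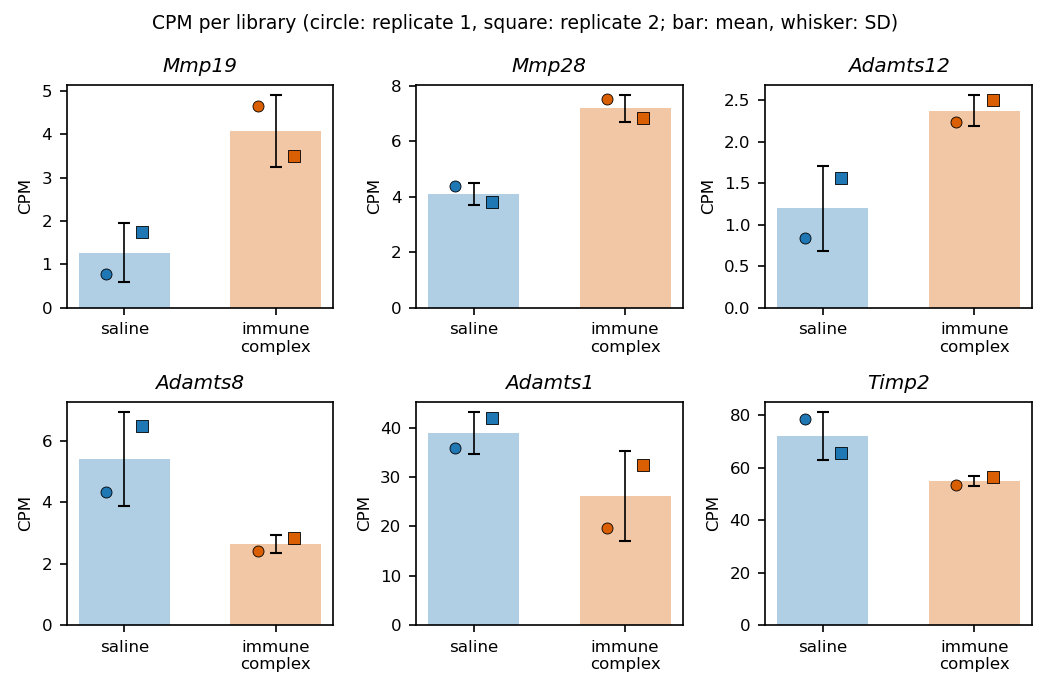
CPM per library of 6 genes whose groups do not overlap (circles replicate 1, squares replicate 2, bars the mean, whiskers the SD, n = 2 each; vertical axes start at 0). Mmp19, Mmp28 and Adamts12 stand higher in both immune complex libraries, and Adamts8, Adamts1 and Timp2 lower.

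Among the genes with more reads, Adamts1 and Timp2 also stood lower without overlap. Adamts1 stood at 36.0 and 41.9 CPM after saline and 19.7 and 32.5 CPM after complexes, a log2 difference of -0.58 ± 0.27 that was -0.26 without immune complex replicate 1, against -0.98 when immune complex replicate 2 was left out. Timp2 (chromosome 11, 118301069 to 118355740, minus strand) stood at 78.5 and 65.6 CPM after saline and 53.5 and 56.3 CPM after complexes, a log2 difference of -0.39 ± 0.18. Adamts12, which cuts cartilage oligomeric matrix protein, stood at 0.836 and 1.56 CPM after saline and 2.24 and 2.505 CPM after complexes, a log2 difference of 0.98 ± 0.42, with 45.8% of its reads in introns. It was 0.60 without saline replicate 1, against 1.49 when saline replicate 2 was left out. None of these 3 passed edgeR's test (unadjusted p = 0.069 for Adamts1, 0.064 for Timp2 and 0.054 for Adamts12).

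Timp3 stood at 1580 and 1533 CPM after saline and 1467 and 1658 CPM after complexes, so its groups overlapped, with a log2 difference of 0.01 ± 0.17. Counted by unique reads alone, which for Timp3 are spliced reads, the difference was -0.20. Its spliced reads came to 83.1 and 68.7 CPM (of the unscaled library total) after saline and 59.9 and 66.6 CPM after complexes. On the scaled library sizes used for the other CPM values, immune complex 2 lay slightly above saline 2, so the groups overlapped. The direction for Timp3 thus depends on which reads are counted, and neither count passed the test.

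Over the 32 tested genes, 6 lay above saline in both immune complex libraries and 7 lay below, against 15.4% and 14.6% of all genes tested. The 6 were Mmp19, Adamts12, Mmp28, Adamts5 (an aggrecanase), Adamts6 (fibrillin-associated) and Mmp25. Of the reads of Mmp25, 94.0% lay in introns, and its groups overlapped by RPKM. The 7 were Adamts8, Adamts1, Mmp12, Mmp11, Adamts2 (a procollagen processor), Timp2 and Mmp14. Outside the 6 genes plotted by CPM, the log2 differences of both sets ran from -0.54 ± 0.42 (Mmp12) to 0.35 ± 0.23 (Adamts5). Adamts5 stood at 7.77 and 7.76 CPM after saline and 11.0 and 8.84 CPM after complexes. Adamts6 stood at 3.59 and 3.88 CPM after saline and 4.88 and 4.39 CPM after complexes. The procollagen processor Adamts2 stood at 3.49 and 4.82 CPM after saline and 3.27 and 3.02 CPM after complexes. In these genes the gap between the groups was narrow, and for Adamts2 it was smaller than the gap within the saline pair. Mmp12 stood at 0.935 and 0.946 CPM after saline and 0.583 and 0.709 CPM after complexes, from 67 reads in all. Fitted differences were positive for 19 and negative for 13 genes. Their median was 0.03, against 0.01 over all genes. The 13 tested Mmp genes had a median of 0.03 and the 17 Adamts genes one of 0.08. Each family held genes on either side of 0.

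**Figure D5:**
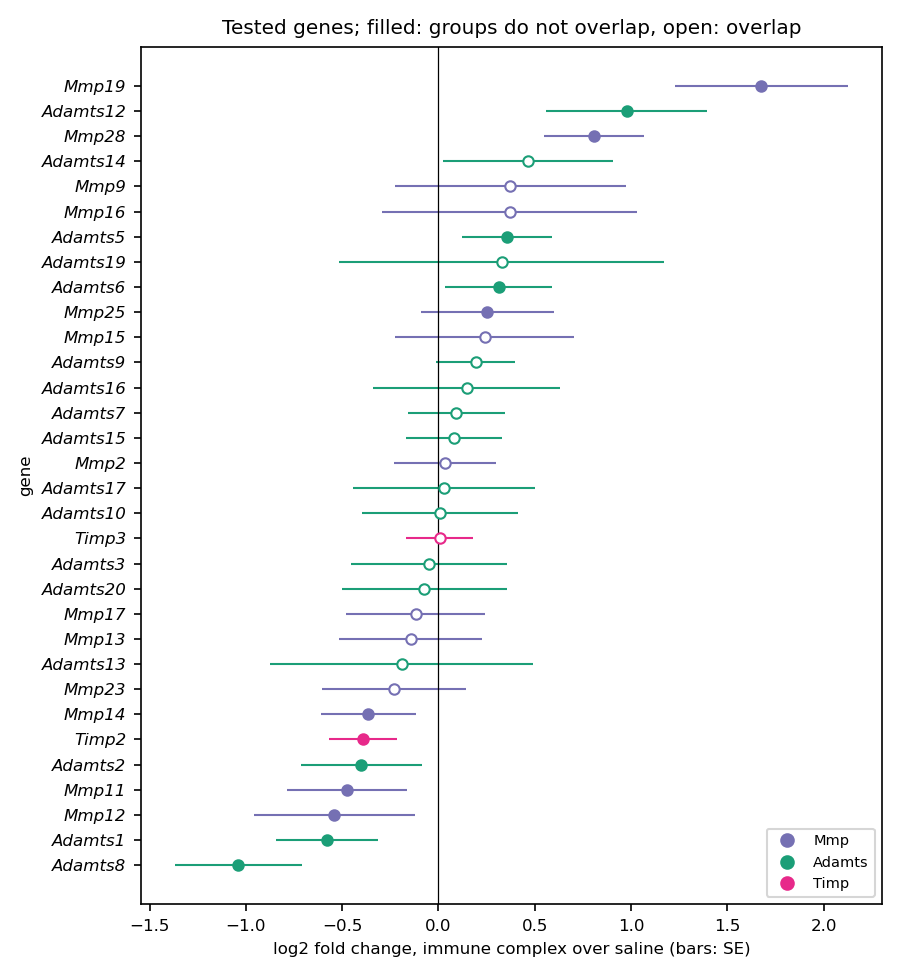
Log2 fold change, immune complex over saline (horizontal axis, points with SE bars), of the 32 tested genes; purple Mmp, green Adamts, pink Timp, filled where the groups do not overlap. Mmp19 at 1.68 and Adamts8 at -1.04 mark the ends, and no gene passed the test.

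Several well-known members had differences smaller than their SE. Mmp2 differed by 0.03 ± 0.27 and Mmp9 by 0.37 ± 0.60, and both turned direction when single libraries were left out. Adamts13 differed by -0.19 ± 0.68, and the difference was -0.87 without saline replicate 2, against 1.08 when saline replicate 1 was left out. Adamts10 stood at 11.2 and 13.5 CPM after saline, while immune complex 1 had 17.6 CPM and immune complex 2 had 7.23 CPM, so that the immune complex libraries enclosed the saline pair. Its difference of 0.01 ± 0.41 became 0.51 without immune complex replicate 2 but -0.77 when immune complex replicate 1 was left out. Mmp14 and Mmp11 differed by -0.36 ± 0.25 and -0.47 ± 0.31, both without overlap of the groups. Adamts9 and Adamts15 differed by 0.19 ± 0.20 and 0.08 ± 0.25, both with overlap. With single libraries left out, Mmp14 ranged from -0.55 (without immune complex replicate 1) to -0.20 (without immune complex replicate 2). Mmp11 ranged from -0.82 to -0.20 under the same omissions. Adamts9 ranged from 0.03 without saline replicate 1 to 0.37 without saline replicate 2. Of the genes read mostly in introns, Mmp16 differed by 0.37 ± 0.66, Adamts7 by 0.09 ± 0.25, Adamts3 by -0.05 ± 0.40, Adamts17 by 0.03 ± 0.47 and Adamts20 by -0.07 ± 0.43.

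Genes that activate, inhibit or resemble these proteases numbered 32, of which 30 were tested, 16 with positive and 14 with negative differences and 0 called. Their groups did not overlap for 4 genes above and 6 below, beside 15.4% and 14.6% of all genes tested, so both counts were near those shares. Pcsk6, a proprotein convertase, stood at 67.1 and 58.7 CPM after saline and 35.04 and 48.2 CPM after complexes (log2 difference -0.60 ± 0.21). Adam19, a shedding protease, stood at 1.23 and 1.32 CPM after saline and 2.20 and 2.03 CPM after complexes (log2 difference 0.72 ± 0.35). Adam12, another, stood at 3.00 and 6.91 CPM after saline and 10.3 and 7.23 CPM after complexes. Its log2 difference of 0.82 ± 0.42 was 0.34 without saline replicate 1, against 1.53 when saline replicate 2 was left out. Reck, a membrane-anchored inhibitor of MMPs, stood at 10.5 and 10.6 CPM after saline and 7.62 and 11.6 CPM after complexes, with overlap and a log2 difference of -0.14 ± 0.27.

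The 25 substrate genes held 21 with enough reads, 8 with positive and 13 with negative differences, and 0 called. Their groups did not overlap for 3 genes above and 9 below, beside 15.4% and 14.6% of all genes tested. An unadjusted p under 0.05 was found for 5 (4.59% of all genes), all lower: Thbs1, Vwf, Vcan, Hspg2 and Reln, the last 2 named after their values were seen. Thbs1, thrombospondin-1, stood at 140.8 and 110.5 CPM after saline and 43.3 and 56.0 CPM after complexes. It differed by -1.34 ± 0.22 (adjusted p = 0.457 in edgeR's test), and by -1.54 to -1.15 with single libraries left out. It passed with the replicate number as a block (adjusted p = 0.0417 in edgeR's test) and in DESeq2 (adjusted p = 0.000109). Vwf, the substrate of Adamts13, stood at 14.7 and 6.62 CPM after saline and 4.48 and 2.505 CPM after complexes, a log2 difference of -1.61 ± 0.46 that was -0.92 without saline replicate 1. The difference was -2.08 without saline replicate 2. Vcan, which encodes versican, the substrate of Adamts1, Adamts9 and Adamts15, stood at 27.6 and 3.55 CPM after saline and 0.672 and 3.12 CPM after complexes. Its log2 difference of -3.04 ± 1.03 was -0.91 without saline replicate 1, against -3.88 when saline replicate 2 was left out. Saline 1 alone stood far above the other libraries. The perlecan gene Hspg2 differed by -0.89 ± 0.31 (-0.45 without saline replicate 1) and Reln, which encodes reelin, by -1.08 ± 0.38 (-1.75 without immune complex replicate 2, against -0.62 when immune complex replicate 1 was left out). The small proteoglycan genes Dcn and Lum had differences in the other direction. Both are also among 5 fibroblast markers, of which 2 (Dcn and Lum) lay above saline without overlap and 2 (Pdgfra and Col1a2) below, beside the same shares of all genes. All 5 markers summed to 120.2 and 120.4 CPM after saline and 109.6 and 107.6 CPM after complexes, and their part in the result was not tested. Dcn stood at 10.4 and 25.4 CPM after saline and 28.7 and 34.97 CPM after complexes, a log2 difference of 0.83 ± 0.39. Lum stood at 0.541 and 2.46 CPM after saline and 2.51 and 5.53 CPM after complexes, a log2 difference of 1.41 ± 0.70. Without saline replicate 1 these were 0.32 and 0.70. When saline replicate 2 was left out, the differences were 1.60 for Dcn and 2.87 for Lum.

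Depth bore on these results as follows. The 4 libraries held 19675879 to 22791960 reads assigned to genes, and 14 of the 46 genes had too few reads to be tested. Without the filter on low counts 45 of the 46 were tested, and 0 were called.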

How the data were processed

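RNA sequencing of 4 kidney samples (2 saline, 2 immune complex) was analysed from tables in which the authors deposited, per the file headers, raw read counts per gene (total, unique, exon, exon-exon and intron) and RPKM. Alignment tools and build appear as STAR 2.5.2b and GRCm38, besides DESeq2, per the submitters' processing notes. For the read counter, gene annotation and strandedness, the setting is not stated in the labels or headers. RPKM equalled exon reads over exon length and library total for 100% of the 46 genes (relative tolerance 0.0001). A further deposited table by the authors holds a log2 fold change with its standard error, test score (stat), p-value and adjusted p-value per gene, besides a mean signal (baseMean) that was not used. There, a positive value means higher after saline: all 80 called genes carry the sign opposite to their ratio of reads, complexes over saline.

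edgeR 4.0.16 (under R 4.3.3) gave the main test on total gene reads, with TMM scaling, the filterByExpr filter (16334 genes kept), glmQLFit and glmQLFTest, with Benjamini-Hochberg adjustment at 0.05, after the code was tested on simulated data. SE is the log2 fold change over the square root of F, and CPM uses TMM-scaled library sizes. Alternatives included DESeq2 1.42.0 and limma 3.58.1 (voom). Genes, lists and tests were chosen with earlier results of these data known. Values per library were given for the TIMPs, the 8 proteases highest in RPKM, members with an unadjusted p under 0.05, 6 textbook members, up to 6 further members without overlap and up to 6 with at least 50% intron reads; of the related lists, the 2 lowest p-values per direction with Reck, Vwf and Vcan (1 of these genes is not reported here). Promoter windows are RefSeq's, on GRCm38.p6. A 14-gene remainder without a window was not searched.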

Additional observations from a re-analysis of the deposited data

How the results depend on the processing

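No gene of the 46 was called by edgeR's test on all 4 libraries or under the other tools, filters, scalings and read types tried, and 1, Mmp19, was called without saline replicate 2. Over all genes, 0 higher and 0 lower calls became 36 and 57 with DESeq2, 0 and 2 without a filter on low counts, and 0 and 1 with unique reads. Leaving out single libraries gave 0 to 123 higher and 0 to 156 lower calls, and 0 to 1 among the 46 genes. The median difference of tested genes ranged from -0.17 to 0.15 with single libraries left out.

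Same-numbered samples are not said to be paired, and their deviations from the group means correlated at -0.13 across genes. With a replicate block, 27 genes were higher and 28 lower, and with crossed numbers, an alternative chosen after seeing the data, 72 and 88; none of the 46 was called under either block.

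Directions turned for 4 of 25 named members outside single-library omissions. Timp3 was at -0.0035 with DESeq2 and -0.20 with unique reads. Adamts10 was at -0.0029 with DESeq2, -0.12 with limma-voom and -0.11 with the replicate block. Adamts13 was at 0.050 with limma-voom, and Adamts3 at 0.42 with exon reads and 0.10 with unique reads. With single libraries left out, 11 of the 25 turned. Their ranges were -0.77 to 0.51 for Adamts10, -0.10 to 0.15 for Mmp2, -0.15 to 0.35 for Adamts15, -0.87 to 1.08 for Adamts13, -0.043 to 0.22 for Adamts7, -0.41 to 0.37 for Adamts17, -0.33 to 0.14 for Adamts20, -0.086 to 0.092 for Timp3, -0.58 to 0.34 for Adamts3, -0.44 to 0.88 for Mmp9 and -0.93 to 1.05 for Mmp16. Reck ranged from -0.47 to 0.13. The cause was not tested. With 2 libraries a group, an omission leaves 1 library assumed to vary like the others.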
